A study of Mus musculus with 8 samples.

Results

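A set of 10 genes of the extracellular matrix other than collagens was followed in mouse embryoid bodies at day 9 of differentiation. They were Fn1, Postn, Tnc, Sparc, Lum, Bgn, Vcan, Fbn1, Eln and Lox, chosen by name as matrix glycoproteins, proteoglycans, elastic fibre genes and lysyl oxidase, and each was found at 1 locus among the 53068 distinct loci of the deposited table. Embryoid bodies are aggregates of embryonic stem cells that differentiate into mixtures of cell types. RNA-seq was measured in 8 libraries of 4 groups, with 2 libraries each. The Prdm16 knockout carried the genotype PRDM16 KO and its control, the Prdm16 control, was WT. The PR domain knockout carried the genotype PR domain KO, with exon 4 of Prdm16 named in the titles, and its own control, the PR domain control, was also WT. All 4 groups had the C57BL/6 background and were grown in Knock-out DMEM with fetal bovine serum. The design asks which expression differences accompany loss of Prdm16 or of its PR domain alone. Prdm16 encodes a zinc finger transcription regulator, and the PR domain is its part related to the SET domains of histone methyltransferases. The labels do not say whether the 2 libraries of a group came from separate cultures or how many clones carry each knockout. The p-values therefore describe library-to-library spread, which may be technical, and a knockout and its clone cannot be told apart.

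The matrix around mesenchymal cells is built in layers that depend on each other. Fibronectin is assembled on integrins into fibrils onto which other proteins, collagens included, are deposited. Periostin, tenascin-C and SPARC are matricellular proteins, which modulate how cells adhere to the matrix rather than carry load. Lumican and biglycan are small leucine-rich proteoglycans that bind collagen fibrils, and versican is a large proteoglycan that binds hyaluronan. Fibrillin-1 forms the microfibrils that scaffold elastin, and lysyl oxidase cross-links elastin and collagen.

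The libraries held 6273789 to 9086885 fragments on named loci. Values are given as normalised fragments, which are fragments per locus divided by 1 size factor per library. Prdm16 had 11.2 and 1.10 normalised fragments in Prdm16 knockout libraries, against 24.4 and 26.3 in Prdm16 control libraries. It had 23.3 and 15.7 in PR domain knockout libraries, against 44.6 and 22.7 in PR domain control libraries. The log2 difference was -2.38 ± 0.50 (SE; limma, adjusted p = 0.000306) with the Prdm16 knockout and -0.71 ± 0.50 (adjusted p = 0.377) with the PR domain knockout, where a count over the whole gene does not check the removal of 1 exon.

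All 10 genes were well expressed and passed the filter on low values. Together they held 1.21 ± 0.0054% of the fragments on named loci in the Prdm16 knockout, against 0.904 ± 0.014% in the Prdm16 control (SD, n = 2 each). The corresponding shares were 1.21 ± 0.039% in the PR domain knockout and 1.09 ± 0.0018% in the PR domain control (SD, n = 2 each). In bulk samples such as these, fewer cells of a type and less RNA per cell cannot be told apart. Fn1 alone made up 41.4 to 46.2% of these fragments in the 8 libraries and Postn 17.6 to 27.0%. The Prdm16 knockout had 8 of the 10 genes higher than its control and 2 lower at a Benjamini-Hochberg adjusted p under 0.05 (limma), where 39.1% of 16623 tested loci were called, 18% higher and 21.1% lower. In the PR domain knockout, 6 genes were higher and 2 lower than in the PR domain control, where 19.2% of loci were called, 8.48% higher and 10.7% lower. With edgeR the counts were 8 and 1 with the Prdm16 knockout and 6 and 2 with the PR domain knockout, and with DESeq2 they were 8 and 1 and 5 and 1. With limma on log2(FPKM + 1), 6 were higher and 0 lower for the Prdm16 knockout (7 and 0 at an unadjusted p under 0.05). The same test called 0 in either direction for the PR domain knockout (4 higher and 1 lower at an unadjusted p under 0.05), so the calls for the PR domain knockout depend on the deposited unit. The median log2 difference of the 10 genes was 0.49 with the Prdm16 knockout and 0.19 with the PR domain knockout, and over all tested loci it was -0.03 in both. Postn, Fn1, Sparc, Lum, Lox and Bgn were called higher in both knockouts, and Fbn1 and Vcan lower in both. Of all tested loci, 5.43% were called higher in both knockouts and 6.16% lower in both. Among the called loci of the Prdm16 knockout, 45.9% were higher with the authors' scaling, 55.0% with TMM, 52.9% with the median-ratio scaling of DESeq2 and 39.3% with scaling to total fragments. For the PR domain knockout, 44.2% were higher with the authors' scaling, 51.9% with TMM, 54.4% with median-ratio scaling and 50.5% with scaling to total fragments.

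**Figure D1:**
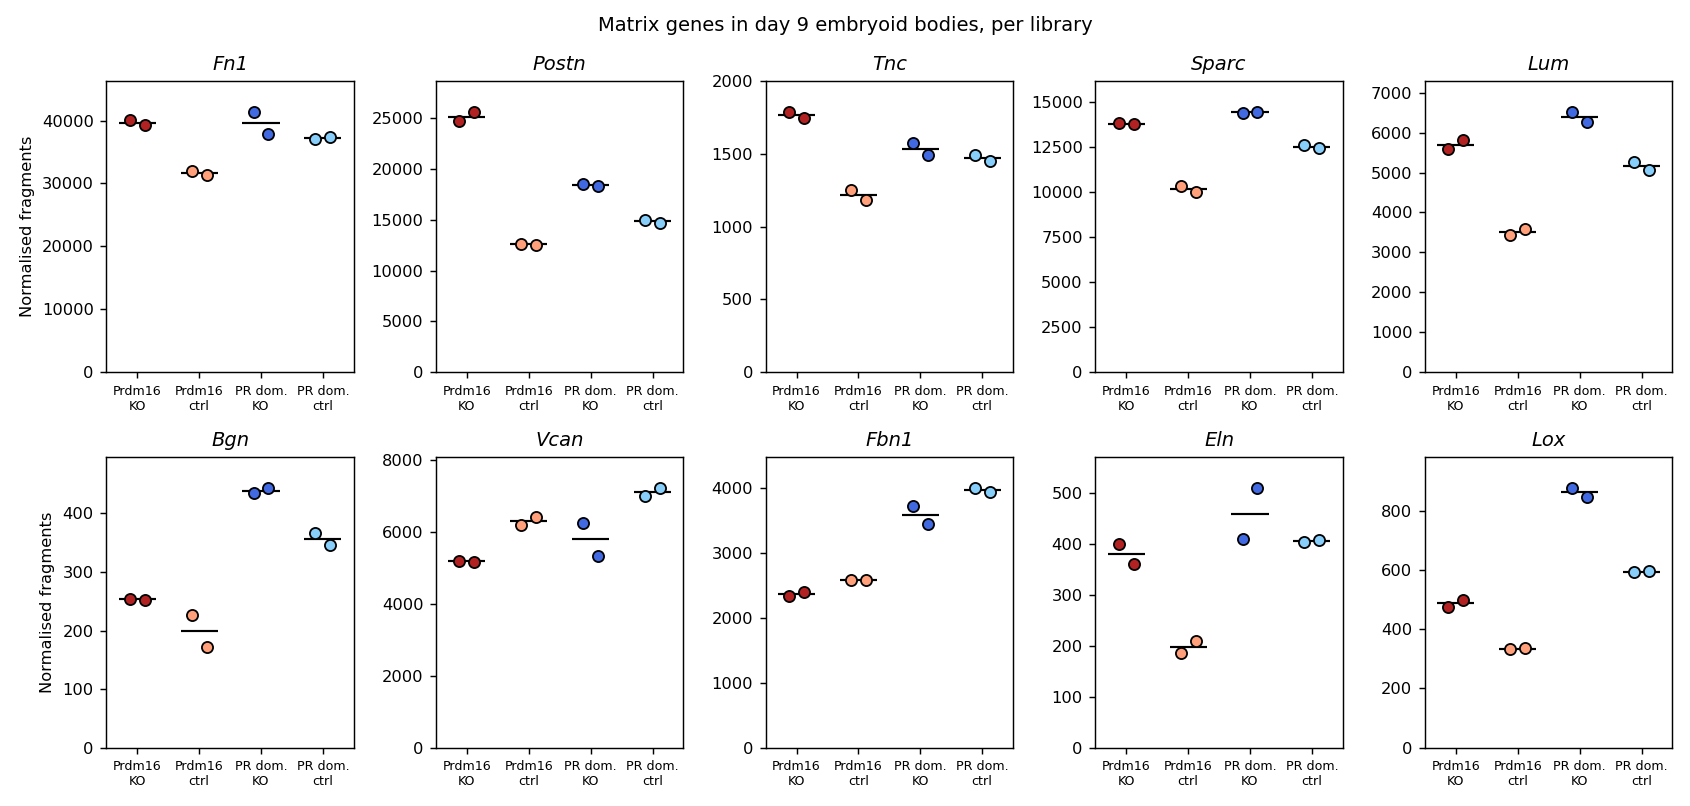
Normalised fragments of each of the 10 genes in the 8 libraries, with each knockout left of its control; points are libraries and lines are group means. Postn stood at 24726 and 25609 in the Prdm16 knockout, above every other library, and Vcan was lower in both knockouts than in their own controls.

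Reference promoter sequences were available for 6 of the 10 genes, Postn, Sparc, Tnc, Bgn, Vcan and Fbn1, from RefSeq annotation of GRCm38.p6. The 250 bases before the annotated start are shown for the 2 with the lowest adjusted p among these that were higher in both knockouts and for the 2 that were lower in both. The windows lie at chr3:54360857-54361106 on the plus strand for Postn, chr11:55420081-55420330 on the minus strand for Sparc, chr13:89742513-89742762 on the minus strand for Vcan and chr2:125506439-125506688 on the minus strand for Fbn1. They are written from 5′ to 3′ towards the start, with motif matches in capitals.
Postn: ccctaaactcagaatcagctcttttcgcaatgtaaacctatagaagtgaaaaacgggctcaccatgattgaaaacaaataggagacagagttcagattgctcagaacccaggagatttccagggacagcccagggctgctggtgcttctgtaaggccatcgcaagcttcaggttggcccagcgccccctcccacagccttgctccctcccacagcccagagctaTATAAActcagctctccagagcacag
Sparc: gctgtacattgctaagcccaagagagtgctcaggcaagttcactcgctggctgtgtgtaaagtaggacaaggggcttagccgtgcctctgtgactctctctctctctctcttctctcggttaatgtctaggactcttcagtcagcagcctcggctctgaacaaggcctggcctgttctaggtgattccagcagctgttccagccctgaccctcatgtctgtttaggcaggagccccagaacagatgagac
Vcan: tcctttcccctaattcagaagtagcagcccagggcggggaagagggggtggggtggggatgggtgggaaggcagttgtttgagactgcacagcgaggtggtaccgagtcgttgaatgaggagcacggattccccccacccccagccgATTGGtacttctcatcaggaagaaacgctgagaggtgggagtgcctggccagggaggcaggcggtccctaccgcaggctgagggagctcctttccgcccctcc
Fbn1: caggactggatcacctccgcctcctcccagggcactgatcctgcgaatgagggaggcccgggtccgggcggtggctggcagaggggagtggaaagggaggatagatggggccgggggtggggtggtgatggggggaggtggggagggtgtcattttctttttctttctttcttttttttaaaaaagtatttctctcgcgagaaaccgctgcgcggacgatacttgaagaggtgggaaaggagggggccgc
Each window was searched on both strands for the TATA box with the letters TATAAA, the CCAAT box with its own letters, the AP-1 site with the letters TGANTCA and the SRF CArG box by its name. The Postn window shown held TATAAA 26 to 21 bases before its start. The window of the other annotated Postn start, at chr3:54359017-54359266, held no motif match. TATAAA was present in 12.4% of 32851 RefSeq windows of this length. In the Vcan window a CCAAT box was found on the opposite strand, read here as ATTGG, 103 to 99 bases before the start, and 33.8% of all windows held one. In Tnc, TATAAA lay 126 to 121 bases before 1 of its 2 annotated starts and 205 to 200 bases before the other. No match lay in the Sparc and Fbn1 windows, and AP-1 and CArG box matches occurred in 6.75% and 1.47% of all windows. A match is a description of these letters only.

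Fn1 (chr1:71585520-71653200, minus strand; protein coding, GRCm38) encodes fibronectin and had the highest fragment number of the 10. It had 40078 and 39276 normalised fragments in Prdm16 knockout libraries, against 31937 and 31395 in Prdm16 control libraries. PR domain knockout libraries had 41332 and 37842, against 37114 and 37455 in PR domain control libraries. Both knockouts lay above all 4 control libraries, but the PR domain knockout values were spread over a wider range than the gap to their control. Relative to their own controls, the log2 difference was 0.33 ± 0.03 (SE; limma, adjusted p = 3.29e-10) with the Prdm16 knockout and 0.09 ± 0.03 (adjusted p = 0.0418) with the PR domain knockout. The PR domain call was lost in 7 of the 8 fits that left out 1 library (adjusted p = 0.0517 to 0.616), with a value of 0.02 without PR domain knockout replicate 1 and 0.15 without PR domain knockout replicate 2. Exons of Apol7d overlap Fn1 on the opposite strand and this locus had 363 to 534 normalised fragments. Reads from the 2 genes cannot be separated here, since no source used here states how strand was handled.

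The matricellular genes had different orders across the 4 groups. Postn (chr3:54361109-54391037, plus strand; protein coding) encodes periostin, which binds collagen and integrins. It had 24726 and 25609 normalised fragments in Prdm16 knockout libraries, against 12645 and 12554 in Prdm16 control libraries. In PR domain knockout libraries it had 18537 and 18383, against 15011 and 14716 in PR domain control libraries. Each knockout pair lay above all 4 control libraries, and the Prdm16 knockout pair also lay above the PR domain knockout pair. The difference on the log2 scale came to 1.00 ± 0.03 (SE; limma, adjusted p = 2.69e-22) for the Prdm16 knockout, the largest estimate of the 10 genes ahead of Eln at 0.94, and to 0.31 ± 0.03 (adjusted p = 7.67e-10) for the PR domain knockout.

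Tnc (chr4:63959785-64047015, minus strand; protein coding) encodes tenascin-C, an anti-adhesive glycoprotein. It had 1787 and 1749 normalised fragments in Prdm16 knockout libraries, against 1252 and 1185 in Prdm16 control libraries. Libraries of the PR domain knockout had 1575 and 1491, against 1493 and 1452 in PR domain control libraries, and these pairs overlapped. Loss of Prdm16 was accompanied by a log2 difference of 0.54 ± 0.05 (SE; limma, adjusted p = 6.46e-10) and loss of the PR domain by a difference of 0.06 ± 0.05 (adjusted p = 0.493). Tnc was thus called with the Prdm16 knockout and did not pass the test with the PR domain knockout.

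Sparc (chr11:55394500-55423183, minus strand; protein coding) encodes osteonectin, a collagen-binding protein. Its values were 13795 and 13753 normalised fragments in Prdm16 knockout libraries, against 10331 and 10007 in Prdm16 control libraries. They were 14391 and 14409 in PR domain knockout libraries, against 12597.5 and 12397 in PR domain control libraries. All 4 knockout libraries lay above all 4 control libraries. Relative to their own controls, the log2 difference was 0.44 ± 0.03 (SE; limma, adjusted p = 5.84e-13) with the Prdm16 knockout and 0.20 ± 0.03 (adjusted p = 4.15e-06) with the PR domain knockout.

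Lum (chr10:97565128-97572703, plus strand; protein coding) encodes lumican, which regulates collagen fibril assembly. It had 5579 and 5807 normalised fragments in Prdm16 knockout libraries, against 3447 and 3584 in Prdm16 control libraries. PR domain knockout libraries had 6513 and 6276, against 5267 and 5068 in PR domain control libraries. The knockout libraries lay above all 4 control libraries. The difference on the log2 scale came to 0.70 ± 0.04 (SE; limma, adjusted p = 3.01e-15) with the Prdm16 knockout and to 0.31 ± 0.04 (adjusted p = 2.54e-07) with the PR domain knockout.

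Bgn (chrX:73483602-73495933, plus strand; protein coding) encodes biglycan and had the fewest fragments of the 10 in 3 of the 4 groups. Its normalised fragments were 254 and 252 in Prdm16 knockout libraries, against 227 and 171 in Prdm16 control libraries. They were 434 and 443 in PR domain knockout libraries, against 367 and 346 in PR domain control libraries. The Prdm16 control pair had the widest relative spread of any replicate pair among the 10 genes, with a coefficient of variation of 19.8% against a median of 2.09% over the 40 pairs. On log2(FPKM + 1), Bgn differed by 0.44 with the Prdm16 knockout (limma, adjusted p = 0.337) and by -0.00074 with the PR domain knockout. In normalised fragments, loss of Prdm16 was accompanied by a log2 difference of 0.36 ± 0.10 (SE; limma, adjusted p = 0.00604). Loss of the PR domain was accompanied by a difference of 0.30 ± 0.10 (adjusted p = 0.0388). Without Prdm16 control replicate 2 the Prdm16 knockout value was 0.16 (adjusted p = 0.278), without Prdm16 control replicate 1 it was 0.56 (adjusted p = 0.000254), and the PR domain call was lost when any of its 4 libraries was left out (adjusted p = 0.0852 to 0.224).

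Vcan (chr13:89655312-89742509, minus strand; protein coding) encodes versican, a hyaluronan-binding proteoglycan of provisional matrix. It had 5198.5 and 5179.9 normalised fragments in Prdm16 knockout libraries, against 6211 and 6430.4 in Prdm16 control libraries. Libraries of the PR domain knockout had 6265 and 5351, against 7008 and 7233 in PR domain control libraries. Each knockout pair lay below its own control, and the 2 PR domain knockout libraries were far apart, with a coefficient of variation of 11.1%. Relative to their own controls, the log2 difference was -0.28 ± 0.05 (SE; limma, adjusted p = 8.69e-06) with the Prdm16 knockout and -0.30 ± 0.05 (adjusted p = 9.12e-06) with the PR domain knockout. Without PR domain knockout replicate 2 the PR domain value was -0.18 (adjusted p = 0.000748).

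The Prdm16 knockout difference of Vcan was not seen in the FPKM values, which the authors scaled by transcript length as well. Its mean FPKM was 162 ± 1.51 in the Prdm16 knockout and 165 ± 14.3 in the Prdm16 control (SD, n = 2 each), a difference of -0.02 on the log2(FPKM + 1) scale (limma, adjusted p = 0.873). The number of normalised fragments per FPKM unit of Vcan was 32.4 and 31.8 in Prdm16 knockout libraries, against 35.5 and 41.6 in Prdm16 control libraries. Versican transcripts differ in length through splicing of its large attachment exons, and how isoforms entered the deposited FPKM was not tested.

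Fbn1 (chr2:125300594-125507993, minus strand; protein coding) encodes fibrillin-1, the backbone of microfibrils. It had 2332.5 and 2396 normalised fragments in Prdm16 knockout libraries, against 2579.5 and 2592 in Prdm16 control libraries. PR domain knockout libraries had 3734 and 3452, against 4006 and 3936 in PR domain control libraries. The knockout pairs lay below their own controls by a small margin, whereas the control sets stood well apart. The difference on the log2 scale came to -0.13 ± 0.04 (SE; limma, adjusted p = 0.0156) with the Prdm16 knockout and to -0.15 ± 0.04 (adjusted p = 0.0135) with the PR domain knockout. The first call was lost without Prdm16 knockout replicate 1 (adjusted p = 0.119), without either Prdm16 control library (adjusted p = 0.0577 and 0.071) and by edgeR (adjusted p = 0.151) and DESeq2 (adjusted p = 0.255). The PR domain value was -0.09 (adjusted p = 0.211) without PR domain knockout replicate 2, and its call was also lost without either PR domain control library (adjusted p = 0.132 and 0.063).

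Eln (chr5:134702593-134747323, minus strand; protein coding) encodes tropoelastin, the elastic core of the fibre. It had 401 and 361 normalised fragments in Prdm16 knockout libraries, against 187 and 209 in Prdm16 control libraries. Libraries of the PR domain knockout had 409.1 and 510.3, against 403.6 and 408.7 in PR domain control libraries. The Prdm16 control pair stood alone at the low end, the other 6 libraries lay between 361 and 510.3, and the lower PR domain knockout library lay next to its control pair. Loss of Prdm16 was accompanied by a log2 difference of 0.94 ± 0.10 (SE; limma, adjusted p = 3.53e-09) and loss of the PR domain by a difference of 0.17 ± 0.10 (adjusted p = 0.25). The PR domain value became 0.33 (adjusted p = 0.0429) without PR domain knockout replicate 1.

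Lox (chr18:52516067-52529867, minus strand; protein coding) encodes lysyl oxidase. It had 475 and 499.5 normalised fragments in Prdm16 knockout libraries, against 334 and 335 in Prdm16 control libraries. PR domain knockout libraries had 876 and 847, against 592 and 597 in PR domain control libraries. The 4 groups did not overlap, and the order from low to high was the Prdm16 control, the Prdm16 knockout, the PR domain control and the PR domain knockout. Relative to their own controls, the log2 difference was 0.54 ± 0.07 (SE; limma, adjusted p = 2.22e-07) with the Prdm16 knockout and 0.53 ± 0.07 (adjusted p = 6.56e-07) with the PR domain knockout.

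**Figure D2:**
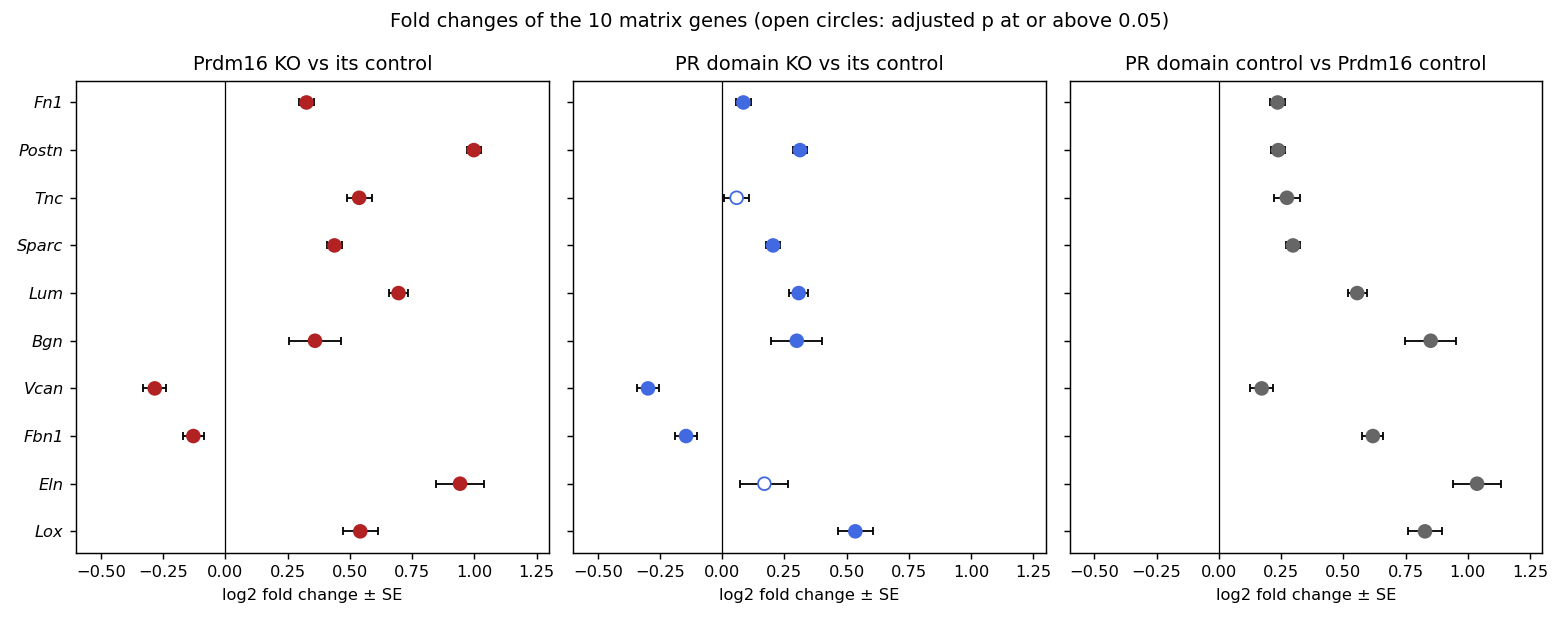
Log2 difference with its standard error for each of the 10 genes in the 2 knockouts and between the 2 control groups, where open symbols mark an adjusted p of 0.05 or more. Postn had 1.00 with the Prdm16 knockout and 0.31 with the PR domain knockout, while Lox had 0.54 and 0.53.

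The 2 knockout effects were compared as an interaction in the same limma model, as the PR domain effect minus the Prdm16 effect. Of the 10 genes, 6 had a smaller effect in the PR domain knockout and 0 a larger one, also at an unadjusted p under 0.05 and by edgeR and DESeq2, where 16.4% of tested loci were called, 8.6% lower and 7.81% higher. On log2(FPKM + 1), 1 gene was called, and 6 had an unadjusted p under 0.05. Postn had the lowest adjusted p, at a difference of -0.69 ± 0.04 on the log2 scale (adjusted p = 5.67e-14). Eln differed by -0.77 ± 0.14 (adjusted p = 0.000129), Tnc by -0.48 ± 0.07 (adjusted p = 1.25e-05) and Lum by -0.39 ± 0.05 (adjusted p = 3.42e-06). For Fn1 the difference was -0.24 ± 0.04 (adjusted p = 0.000111) and for Sparc -0.23 ± 0.04 (adjusted p = 0.000162). Lox, Vcan, Fbn1 and Bgn did not pass this test, with differences of -0.01, -0.01, -0.02 and -0.06 and adjusted p between 0.834 and 0.975, and all 4 differences were positive with scaling to total fragments. Among all called loci 47.6% had a positive difference with the authors' scaling and 63.0% with scaling to total fragments.

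The 2 control groups, both WT, also differed in these genes. All 10 were higher in the PR domain control than in the Prdm16 control (limma), where 33% of loci were called, 16.3% higher and 16.7% lower. On log2(FPKM + 1), 6 of the 10 were called higher. Eln differed most, with a log2 difference of 1.04, followed by Bgn at 0.85, Lox at 0.83, Fbn1 at 0.62 and Lum at 0.56. The others lay between 0.17 for Vcan and 0.30 for Sparc. The Vcan call was lost without Prdm16 control replicate 1 (adjusted p = 0.0647) or PR domain control replicate 2 (adjusted p = 0.0655). This gap between controls was larger than the knockout difference for 4 of the 10 genes in the Prdm16 comparison and for 8 in the PR domain comparison. Both libraries of the Prdm16 knockout exceeded all 4 control libraries for Postn, Fn1, Sparc, Lum and Tnc, and lay below all 4 for Fbn1 and Vcan, where 19.3% and 23.4% of tested loci did so. Both libraries of the PR domain knockout exceeded all 4 control libraries for Postn, Fn1, Sparc, Lum, Lox, Eln and Bgn, where 15.7% of loci did so, and 0 genes lay below all 4, where 20.6% of loci did so. What differed between the 2 WT sets besides the label was not tested.

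Per transcript length the order of the genes differed between groups. Postn led in the Prdm16 knockout at 1118 ± 39.8 FPKM, followed by Sparc at 1044 ± 35.6 and Fn1 at 797 ± 43.8, whereas in the Prdm16 control Sparc led at 763 ± 14.9, ahead of Fn1 at 657 ± 55.2 and Postn at 551 ± 0.76 (SD, n = 2 each). In the PR domain knockout the order was Sparc at 1023 ± 21.5, Postn at 828 ± 8.67 and Fn1 at 803 ± 20.1, against Sparc at 916 ± 4.78, Fn1 at 754 ± 26.3 and Postn at 678 ± 33.7 in the PR domain control (SD, n = 2 each). Lum and then Vcan followed in all 4 groups. The libraries of Sparc, Postn and Fn1 did not overlap within any group, and the narrowest gap lay between Postn at 822 and Fn1 at 818 FPKM in the PR domain knockout. The other 5 genes lay at or below 45.4 FPKM. Lox and Eln were at the end in each group, with 13.4 ± 0.53 and 11.9 ± 0.64 FPKM in the Prdm16 knockout and 9.23 ± 0.011 and 7.03 ± 0.12 FPKM in the Prdm16 control.

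**Figure D3:**
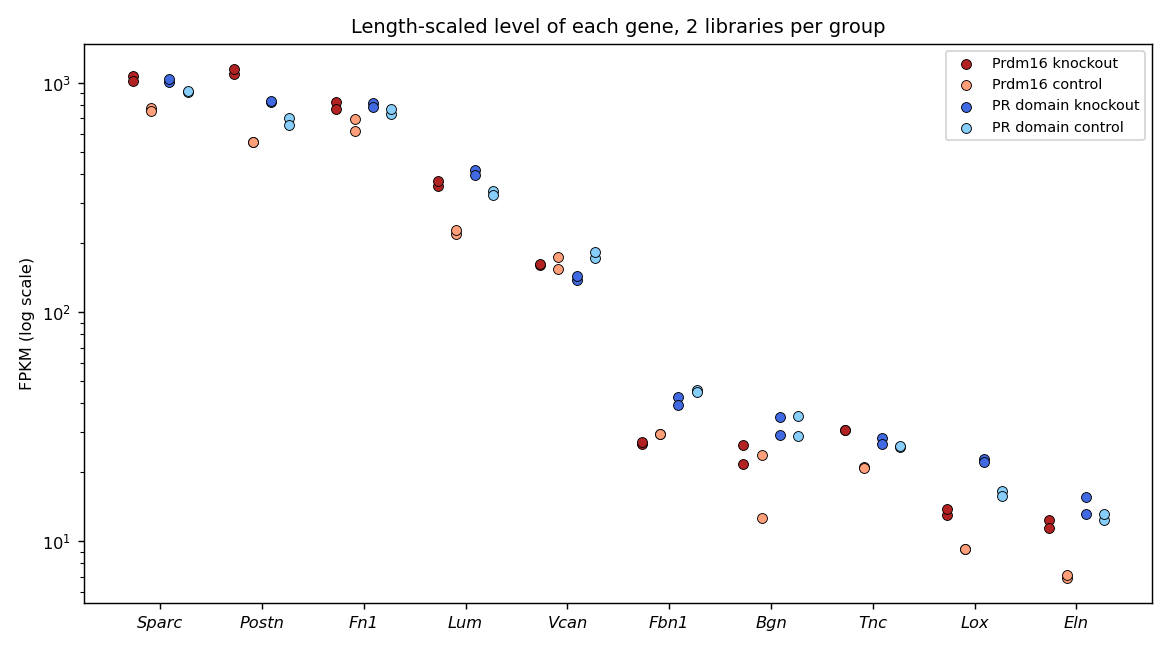
Deposited FPKM of the 10 genes by group on a log axis, with a point for each library. Postn had the highest mean in the Prdm16 knockout, at 1118, and lay below Sparc and Fn1 in both controls.

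Across the 8 libraries, Fn1 and Sparc had the smallest root mean square log2 difference around their own means of all pairs of the 10 genes, at 0.07. Fn1 and Tnc came next at 0.09, and Lox and Bgn lay at 0.15. Postn and Fbn1 were farthest apart at 0.56. These differences are not scaled to how much a gene varied, so genes that varied little can lie close. The root mean square deviation from a gene's own mean ranged from 0.14 for Fn1 to 0.49 for Lox. It was 0.18 for Vcan, 0.19 for Sparc and Tnc and 0.37 for Postn. Vcan had no close match among the other 9, since its smallest value, to Fbn1, was 0.24, against a median of 0.22 between Vcan and 8807 loci. Of these 8807 loci with a mean of at least 100 normalised fragments, the closest in pattern were Abat for Postn at 0.05, Peg3 for Fn1 at 0.03, Gabarap for Sparc at 0.02 and B2m for Lox at 0.05. These are descriptions over 8 libraries that share controls and scaling.

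Among elastic fibre and microfibril partners, more genes were called higher than lower in both knockouts. Of 19 tested partners, 10 were called higher and 1 lower in the Prdm16 knockout, with a median log2 difference of 0.46, and 10 higher and 0 lower in the PR domain knockout, with a median of 0.34, against -0.03 over all loci in both. Between the 2 control groups, 14 of the 19 were called higher and 1 lower in the PR domain control, with a median of 0.50. Fbln2, a fibulin of basement membranes and elastic fibres, differed by 1.05 with the Prdm16 knockout and 0.58 with the PR domain knockout. Fbln1, another fibulin, differed by 0.56 and 0.44. Loxl1, a paralogue of Lox needed for elastic fibre renewal and named after its values were seen, had 772 and 628 normalised fragments in Prdm16 knockout libraries, against 395 and 387 in Prdm16 control libraries, a log2 difference of 0.83 (limma, adjusted p = 9.14e-10). Fbn2, the second fibrillin, had a log2 difference of -0.28 with the Prdm16 knockout.

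In the hyaluronan network, to which Vcan belongs, the called genes were lower in both knockouts. Of 6 other genes tested, 0 were called higher and 4 lower in the Prdm16 knockout, with a median log2 difference of -0.72, and 0 higher and 3 lower in the PR domain knockout, with a median of -0.46. Cd44, the hyaluronan receptor, decreased by 1.10 with the Prdm16 knockout and by 0.75 with the PR domain knockout, both on the log2 scale. Hapln1, the link protein that joins hyaluronan to its proteoglycans, decreased by 0.76 and decreased by 0.56. Has2, a hyaluronan synthase named after its values were seen, differed by -0.17 (limma, adjusted p = 0.0181) and -0.19 (adjusted p = 0.0161). The fourth gene called in the Prdm16 knockout was Has3, another such synthase, at -0.35 (adjusted p = 0.0322). Cartilage markers, of which Hapln1 is 1, summed to 1115 to 1200 normalised fragments in the Prdm16 knockout, against 2592 to 2673 in the Prdm16 control, and to 1965 to 1972 in the PR domain knockout, against 3162 to 3250 in the PR domain control. Col2a1 was the largest part of these sums. It had 491 and 490 normalised fragments in Prdm16 knockout libraries, against 1534 and 1528 in Prdm16 control libraries. Of the 5 cartilage markers tested, 0 were called higher and 3 lower with each knockout. Sox9 did not pass the test with either knockout (limma, adjusted p = 0.0563 and 0.19). The part of cartilage cells in the differences of the hyaluronan network was not tested.

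The other matricellular genes and the small leucine-rich proteoglycans were mixed. Of 15 matricellular relatives, 8 were called higher and 4 lower with the Prdm16 knockout, and 5 higher and 4 lower with the PR domain knockout. Cyr61, an integrin-binding protein, differed by 0.81 with the Prdm16 knockout and by -0.55 with the PR domain knockout, and Smoc2, a SPARC relative, by 0.80 and 0.36. Of 5 small leucine-rich proteoglycans tested, 0 were higher and 1 lower with the Prdm16 knockout, and 3 higher and 0 lower with the PR domain knockout, namely Fmod at 0.88, Tsku at 0.48 and Dcn at 0.27, where Tsku was named after its values were seen. Podn, which encodes podocan, was the gene that was lower, at -2.66 ± 0.47 (SE). It was a low locus, with 4.96 and 1.10 normalised fragments in Prdm16 knockout libraries, against 20.1 and 22.6 in Prdm16 control libraries.

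Receptors and processing enzymes had no common direction. Of 14 integrin and syndecan genes, 6 were called higher and 3 lower with the Prdm16 knockout, and 5 higher and 2 lower with the PR domain knockout. Itga4, which pairs with beta 1 integrin to bind fibronectin, differed by 1.05 and 0.32, and Itga9, a receptor for tenascin-C, by -0.77 and -0.41. Of 17 processing enzymes and inhibitors, 6 were higher and 7 lower with the Prdm16 knockout, and 6 higher and 2 lower with the PR domain knockout. Adamts9, a protease that cleaves versican, differed by 0.60 and 0.59, but the Adamts genes of this list had no common direction. Adamts4, named after its values were seen, differed by -1.05 (limma, adjusted p = 0.000214) and -0.30 (adjusted p = 0.383). For comparison, 7 of 12 collagen genes were higher and 3 lower with the Prdm16 knockout, and 9 higher and 2 lower with the PR domain knockout. Col1a1 differed by 0.56 and 0.62, and Col2a1, the cartilage collagen, by -1.64 and -0.81. Between the 2 control groups, 10 of the 12 collagen genes were called higher and 0 lower in the PR domain control.

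**Figure D4:**
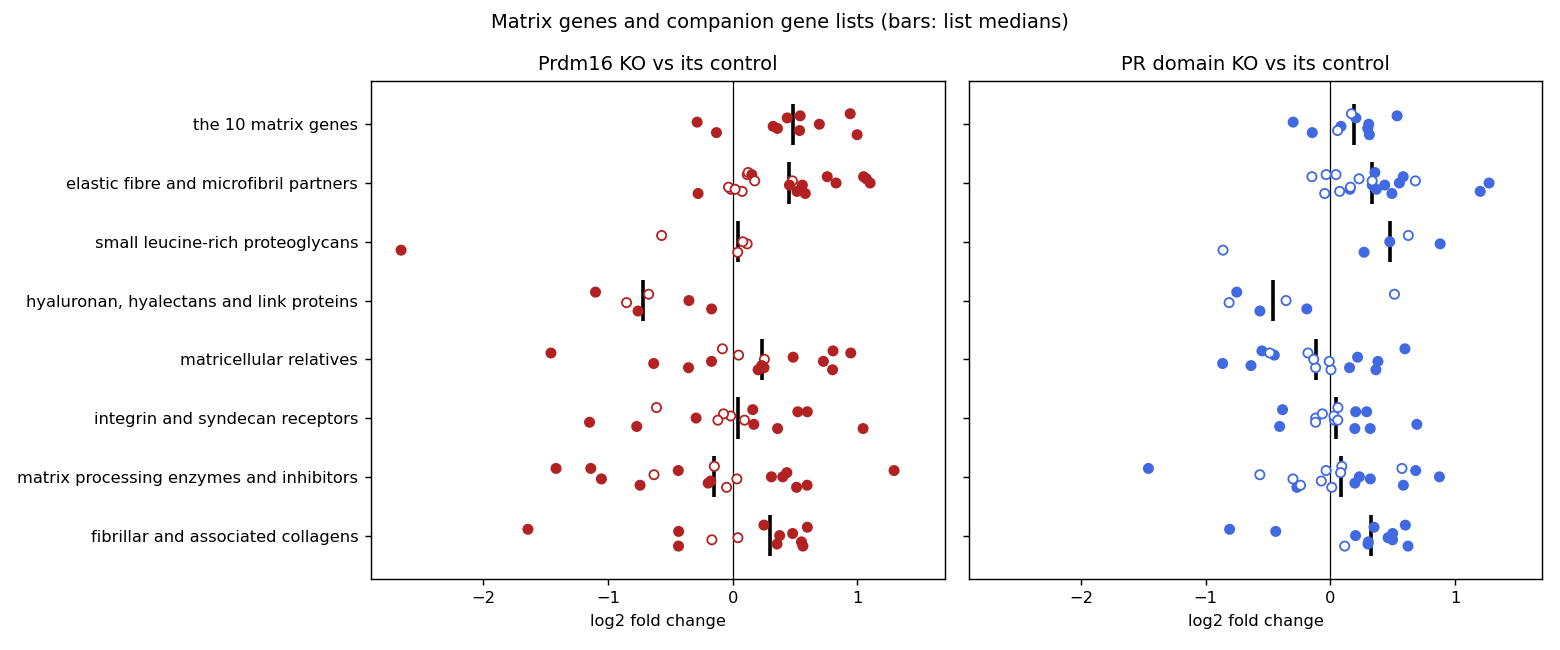
Log2 difference of the 10 genes and of each tested gene of the companion lists in the 2 knockouts, with bars for medians and open symbols for an adjusted p of 0.05 or more. Elastic fibre partners had medians of 0.46 and 0.34 and the hyaluronan network -0.72 and -0.46 in the Prdm16 and PR domain knockout.

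Summed markers of cell types differed between the same groups. The summed level of 12 mesenchyme markers was 3543 to 3561 normalised fragments in the Prdm16 knockout, against 3082 to 3185 in the Prdm16 control. It was 3551 to 3577 in the PR domain knockout, against 3634 to 3672 in the PR domain control, so that this sum was lower in that knockout. Of the 10 mesenchyme markers tested, 3 were called higher and 4 lower with the Prdm16 knockout, and 2 higher and 4 lower with the PR domain knockout. Pdgfra, a mesenchymal receptor tyrosine kinase and the largest part of the sum, differed by 0.67 and 0.28. It had 2154 and 2138 normalised fragments in Prdm16 knockout libraries, against 1342 and 1349 in Prdm16 control libraries. This gap was wider than the gap between the sums of all 12 markers. Twist1, a mesenchymal transcription factor, differed by -1.18 and -0.78. Prrx1, another such factor, had 43.4 and 41.8 normalised fragments in Prdm16 knockout libraries, against 194 and 203 in Prdm16 control libraries.

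Parietal endoderm, a source of Sparc in early embryos, had summed markers of 26240 to 26440 in the Prdm16 knockout, against 26540 to 26990 in the Prdm16 control, and 22780 to 23330 in the PR domain knockout, against 29050 to 29530 in the PR domain control. Of its 10 markers 2 were called higher and 2 lower with the Prdm16 knockout, and 1 higher and 6 lower with the PR domain knockout. Col4a1, Col4a2, Lamb1 and Lamc1 were the largest parts of the parietal endoderm sums in every group. Among the smaller parts, Thbd differed by -1.70 and Pth1r by 0.60 with the Prdm16 knockout. Sums of 8 visceral endoderm markers were 77550 to 78170 in the Prdm16 knockout, against 36570 to 38240 in the Prdm16 control. They were 9848 to 9939 in the PR domain knockout, against 5327 to 5586 in the PR domain control, and 7 and 8 of the 8 were called higher. Smooth muscle markers summed to 8204 to 8462 in the Prdm16 knockout, against 6955 to 7108 in the Prdm16 control. In the PR domain knockout they summed to 8093 to 8170, against 12160 to 12570 in the PR domain control. Of the 7 smooth muscle markers tested, 2 were called higher and 3 lower with the Prdm16 knockout. With the PR domain knockout, 0 of them were called higher and 5 lower. Macrophage markers summed to 2895 to 2949 in the Prdm16 knockout, against 1328 to 1419 in the Prdm16 control, and to 6959 to 6976 in the PR domain knockout, against 3552 to 3716 in the PR domain control. Cardiomyocyte markers summed to 7457 to 7480 in the Prdm16 knockout, against 8469 to 8740 in the Prdm16 control, and to 9727 to 9881 in the PR domain knockout, against 17920 to 18070 in the PR domain control. Endothelial markers summed to 5115 to 5254 in the Prdm16 knockout, against 5539 to 5574 in the Prdm16 control, and to 5467 to 5505 in the PR domain knockout, against 7551 to 7772 in the PR domain control. Neural markers summed to 831.8 to 833.7 in the Prdm16 knockout, against 1457 to 1458 in the Prdm16 control, and to 1242 to 1243 in the PR domain knockout, against 1736 to 1770 in the PR domain control. Of 10 cardiomyocyte markers, 7 were called lower with the Prdm16 knockout and 9 with the PR domain knockout, and 1 was called higher with each. Among the mesenchyme and cartilage markers, Dpt had at most 1.06 and Acan at most 1.88 normalised fragments in any library. The part of these cell types in the matrix differences was not tested.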

How the data were processed

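Total RNA of 8 embryoid body samples was sequenced as TruSeq libraries, per the labels' protocols, and titles gave the groups and replicate numbers. TopHat2 2.1.1, SAMtools 1.5, Cufflinks 2.2.1, deepTools and mm10 are named, without roles, by the submitters' processing notes. No source used here gives the annotation release or the strand setting. The authors deposited signal values, fragments per locus over 1 size factor per library, of which 99.99 to 100.0% gave whole fragments within 0.1. FPKM values from the authors served for levels and as an alternative.

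The 16623 named loci that reached a value of 10 in 2 or more libraries were tested on log2(value + 1) with limma 3.58.1 (trend) in R 4.3.3, in a model of 4 group means over all 8 libraries with 4 residual degrees of freedom. The spread of each locus was moderated with 25.4 prior degrees of freedom estimated from all tested loci. Adjusted p-values are Benjamini-Hochberg over these loci. Log2 differences with this pseudocount understate changes of low loci. Unnamed loci held 1.88 to 2.53% of fragments and were left out. Alternatives were edgeR 4.0.16 and DESeq2 1.42.0 on recovered fragments, FPKM, other scalings, filters, pseudocounts and fits without each library. On data simulated for the Prdm16 knockout comparison over 16623 loci, 10 of 50 loci with a fold of 1.25, 31 of 50 with 1.5, 38 of 50 with 2 and 46 of 50 with 4 were recovered. Coordinates are from GENCODE M21 (GRCm38). The genes and companion lists were chosen with earlier results of these data known. List genes named in the text come from the 2 per direction with the lowest adjusted p, unless stated otherwise, and 1 of these is not reported here.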

Additional observations from a re-analysis of the deposited data

Results flagged for a closer look

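The effects of the 2 knockouts, each against its own control, differed for 6 of the 10 genes by the interaction test in limma, always with the smaller value in the PR domain knockout. The difference, as the PR domain effect minus the Prdm16 effect on the log2 scale, was -0.69 for Postn and -0.77 for Eln. It was -0.48 for Tnc and -0.39 for Lum. The values for Fn1 and Sparc were -0.24 and -0.23. The Prdm16 control, which is below the PR domain control for all 10 genes, enters each of these differences.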

How the results depend on the processing

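Of 810 alternatives over 40 results of single genes, 705 kept direction and call, 90 lost the call, 1 gained it and 14 reversed, all 14 being values that were not called under the alternative. Each group had 2 libraries, and the standard error was widest for Bgn and Eln, the genes with the fewest fragments. Same-numbered libraries did not deviate together (correlations of -0.036 to 0.031). This does not settle whether the libraries were prepared in pairs, which the labels do not say. With a replicate block, 6438, 3149, 2686 and 5442 loci were called in the Prdm16 knockout, PR domain knockout, their difference and the control comparison, and the 10 genes had counts of 8 and 2, 6 and 2, 0 and 6, and 10 and 0 higher and lower.

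Against 6502 loci called in the Prdm16 knockout, DESeq2 called 3983, log2(FPKM + 1) 2244, log2(FPKM + 0.1) 2143 and limma with a minimum fold of 1.5 683. Against 3190 in the PR domain knockout the counts were 1794, 582, 511 and 221. For the difference (2728) they were 1642 without the filter, 1189 by DESeq2, and 199 and 132 with FPKM. For the controls (5481) they were 3388, 1717 and 1698 with DESeq2 and FPKM.

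The matrix genes called higher in the Prdm16 knockout (8) numbered 2 with the minimum fold. Those called lower (2) were 1 without the filter, with TMM or median-ratio scaling, edgeR or DESeq2, and 0 with FPKM or the minimum fold. In the PR domain knockout, matrix genes called higher (6) and lower (2) were 0 and 0 with both FPKM settings, where 4 and 1 had an unadjusted p under 0.05, and with the minimum fold; lower was 1 without the filter, with median-ratio scaling and by DESeq2. Leaving out a library gave 1 to 2 called lower in each knockout. With FPKM the difference called 1 matrix gene (6) and the controls 6 (10). The log2 ratio of the matrix genes' summed share of fragments was 0.42 in the Prdm16 knockout and 0.27 between controls. For their summed values with median-ratio scaling, which are not shares, it was 0.50 and 0.30. The cause was not tested.

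Bgn in the PR domain knockout was -0.00074 and -0.00072 with FPKM. The difference reversed with total-fragment scaling to 0.045 for Fbn1, 0.055 for Lox, 0.047 for Vcan and 0.0013 for Bgn. Without 1 library it ranged from -0.073 to 0.040 for Fbn1, -0.043 to 0.029 for Lox, -0.13 to 0.10 for Vcan and -0.26 to 0.14 for Bgn.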
